A study of Mus musculus with 8 samples.

Results

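Plvap and the coat genes of caveolae were read from the count table as 8 genes out of 24421 rows. They are Plvap, the caveolin genes Cav1 and Cav2, the cavin genes Cavin1, Cavin2 and Cavin3 (listed under the older symbols Ptrf, Sdpr and Prkcdbp), Ehd2 and Pacsin2. All 8 had counts in every library, and all 8 passed the filter on low counts. In sorted brain endothelial cells Plvap and Cavin3 were called higher in knockout libraries and Cavin2 lower. The other 5 genes did not pass the test. The Cavin3 call held in only 3 of the 8 fits that left out 1 library. Relative to endothelial markers Cavin3 overlapped between genotypes. None of the 8 genes was called when markers of other cell types were a covariate.

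Caveolae are small flask-shaped pits of the plasma membrane, and they are abundant in most endothelia and scarce in the capillaries of the mature brain. Caveolins form the membrane scaffold, cavins coat it from the cytoplasm, and proteins of the EHD and pacsin families sit at the neck. Plvap (plasmalemma vesicle associated protein) makes the thin diaphragms across caveolae, fenestrae and transendothelial channels. It is known as a marker of immature or leaky brain vessels and is normally lost as the blood-brain barrier matures.

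RNA was sequenced from mouse brain endothelial cells at E14.5, a day of mid gestation, in 4 libraries from Flvcr2 knockout and 4 from Flvcr2 heterozygous embryos, all of strain C57Bl6. The mutant Flvcr2 allele expresses GFP, and cells positive for GFP and CD31 were sorted, so every embryo in both groups carried the mutant allele and no group without it was analysed here. Flvcr2 encodes a membrane transporter, and the comparison asks which transcripts differ when it is lost. No label tells whether the libraries of a genotype stem from different embryos, and the p-values therefore reflect the scatter among these libraries, which may be partly technical.

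Knockout libraries held 12076498 to 35861108 counts and heterozygous libraries 9107329 to 22615252. The lowest count of any of the 8 genes was 152, for Cavin2 in knockout 2. Levels are given in CPM, with library sizes scaled by TMM, and genes with an adjusted p under 0.05 in edgeR's quasi-likelihood test of 13540 genes were called. Flvcr2, listed as Mfsd7c, averaged 301 ± 73.6 CPM in knockout and 427 ± 124 CPM in heterozygous libraries and was not called (log2 fold change -0.50 ± 0.24 SE, edgeR adjusted p = 0.209). The sources used here do not say which part of Flvcr2 is deleted, so the genotype labels cannot be checked with this gene. The 10 endothelial markers were detected in all 8 libraries. Heterozygous 2 and knockout 1 had 0 and 1 counts of Xist, against 229 to 1135 in the other 6 libraries. They had 331 and 914 counts of Ddx3y, against 0 to 56 in the other 6 libraries. Heterozygous 3, heterozygous 4 and knockout 4 had counts of both genes (28, 56 and 6 of Ddx3y). Each genotype thus held 1 library with almost no Xist. These 2 libraries were left out together in one of the alternative fits.

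Of the 8 genes 2 were called higher and 1 lower in knockout, while over all 13540 tested genes 9.55% were called, 5.53% higher and 4.02% lower. The groups did not overlap for these same 3 genes, and over all tested genes this held for 9.7% in the higher and 7.9% in the lower direction. The median log2 fold change of the 8 genes was -0.20, beside -0.03 over all tested genes. In bulk libraries fewer cells of a type and less RNA per cell cannot be told apart.

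**Figure D1:**
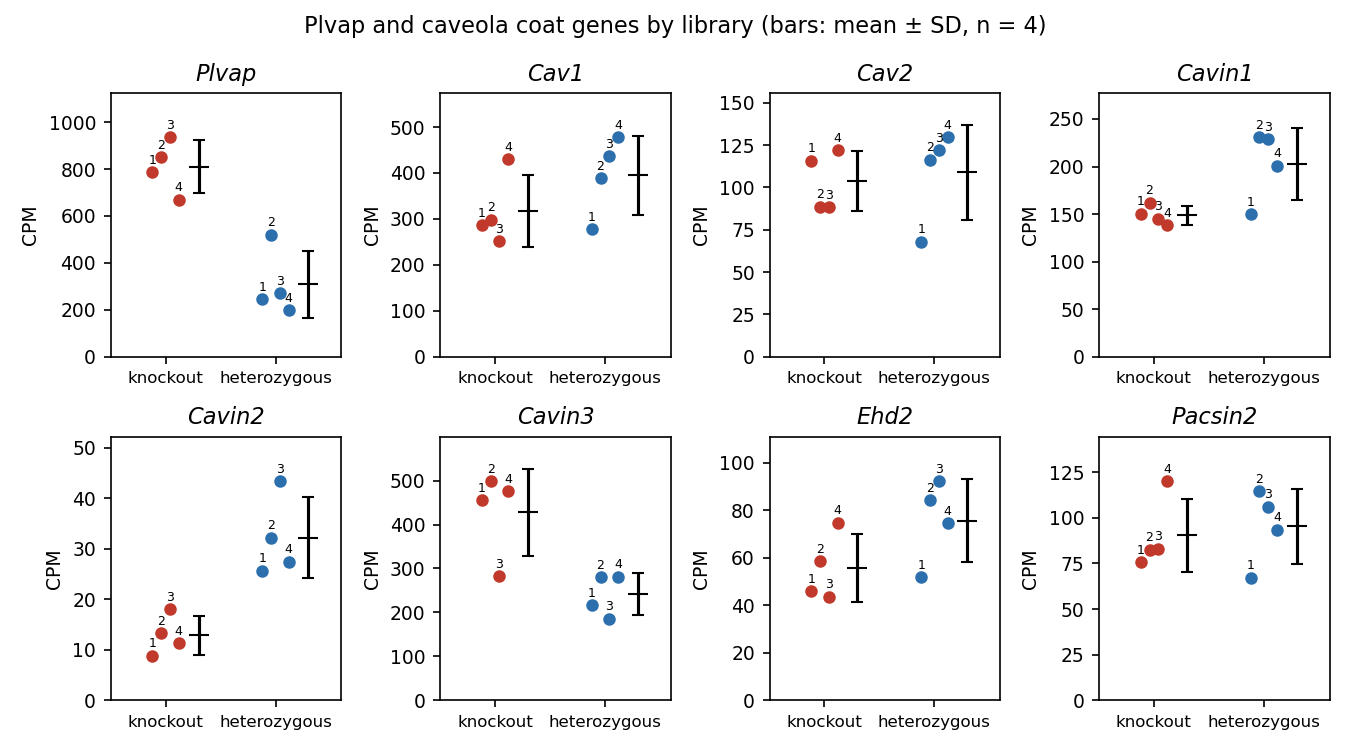
CPM of the 8 genes in each library, with knockout in red and heterozygous in blue; digits are library numbers and bars show mean ± SD (n = 4 each). Plvap and Cavin3 lie higher in all 4 knockout libraries than in any heterozygous library, Cavin2 lies lower in all 4, and the groups of the other 5 genes overlap.

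Plvap lies on chromosome 8 of GRCm38, from 71497753 to 71511806 on the minus strand (Entrez 84094). Knockout libraries 1 to 4 had 786, 851, 935 and 669 CPM of Plvap, against 244, 520, 271 and 199 CPM in heterozygous libraries 1 to 4. The lowest knockout library thus stood above the highest heterozygous one, which was heterozygous 2. Plvap averaged 810 ± 112 CPM in knockout and 308 ± 144 CPM in heterozygous libraries (SD, n = 4 each). It rose 2.63-fold, with a log2 fold change of 1.39 ± 0.27 (SE; 95% interval 0.79 to 1.996; edgeR adjusted p = 0.0118). Leaving out each library in turn kept the call 8 times of 8, with log2 fold changes from 1.24 to 1.77. It was lost when heterozygous 1 was left out together with knockout 2 (log2 fold change 1.27, edgeR adjusted p = 0.0532) or with knockout 3 (1.24, adjusted p = 0.0562). Gtpbp3, which overlaps the annotated span of Plvap on the opposite strand without a shared exon base, averaged 23.8 ± 9.19 CPM in knockout and 17.9 ± 5.37 CPM in heterozygous libraries and was not called (edgeR adjusted p = 0.485).

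Levels of different genes were set against each other per kilobase of annotated exon. On that scale Plvap had the highest mean of the 8 genes in both genotypes, at 408 ± 56.5 CPM per kb in knockout and 155 ± 72.6 CPM per kb in heterozygous libraries. Cavin3 followed with 258 ± 59.6 CPM per kb in knockout and 145 ± 28.8 CPM per kb in heterozygous libraries. Cav1 came next, at 92.0 ± 22.7 and 114.7 ± 25.1 CPM per kb in knockout and heterozygous libraries. In heterozygous libraries the ranges of Plvap (99.9 to 262), Cavin3 (112 to 169) and Cav1 (80.5 to 139 CPM per kb) overlapped, so these 3 were not ordered there beyond their spread. With the longest principal transcript as the length, Cav1 led in heterozygous libraries at 156.6 ± 34.3 CPM per kb, against 155.2 for Plvap and 145.1 for Cavin3. In knockout libraries Plvap (337 to 471), Cavin3 (170 to 301) and Cav1 (73.2 to 125 CPM per kb) did not overlap. Below them came Cavin1, Cav2, Pacsin2, Ehd2 and last Cavin2, at 4.203 ± 1.27 CPM per kb in knockout and 10.5 ± 2.62 CPM per kb in heterozygous libraries.

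Cav1, the main caveolin of endothelium, and Cav2, its partner in mixed caveolin complexes, did not pass the test. Knockout libraries 1 to 4 had 287, 298, 252 and 430 CPM of Cav1, against 277, 389, 436 and 478 CPM in heterozygous libraries 1 to 4. The groups overlapped, with knockout 4 above heterozygous 1 and 2, and heterozygous 1 below knockout 1 and 2. The log2 fold change of Cav1 was -0.32 ± 0.21 (SE), with a 95% interval of -0.78 to 0.14 (edgeR adjusted p = 0.373). Cav2 was at 116, 88.7, 88.3 and 122 CPM in knockout libraries 1 to 4 and at 67.9, 116, 122 and 130 CPM in heterozygous libraries 1 to 4. The knockout range lay within the heterozygous one, and the log2 fold change of -0.07 ± 0.21 (SE) had a 95% interval of -0.54 to 0.40 (edgeR adjusted p = 0.866). Its sign turned in 3 of 8 leave-one-out fits, with values up to 0.03.

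Cav2 and Cav1 are neighbours on chromosome 6 of GRCm38, Cav2 from 17281185 to 17289130 and Cav1 from 17306335 to 17341328, both on the plus strand with 17204 bases between them. Counts of Cav1 per count of Cav2 were 2.48, 3.37, 2.86 and 3.53 in knockout libraries 1 to 4, against 4.08, 3.35, 3.58 and 3.69 in heterozygous libraries. The ratio of Plvap to Cav1 in CPM was 2.74, 2.85, 3.71 and 1.55 in knockout libraries 1 to 4, against 0.880, 1.34, 0.622 and 0.416 in heterozygous libraries. The groups did not overlap in this ratio, which is not per length and so sets libraries, not the 2 genes, against each other.

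Of the 3 cavin genes Cavin3 rose, Cavin2 fell and Cavin1 did not pass the test. Cavin3, which encodes a protein that binds protein kinase C delta and takes part in the traffic of caveolae, was at 455, 500, 282 and 476 CPM in knockout libraries 1 to 4, against 217, 281, 186 and 281 CPM in heterozygous libraries 1 to 4. Knockout 3 was barely above the 2 highest heterozygous libraries (281.9 against 280.8 and 281.5 CPM), and the other 3 knockout libraries stood well apart. Cavin3 rose 1.77-fold, with a log2 fold change of 0.83 ± 0.21 (SE; 95% interval 0.37 to 1.28; edgeR adjusted p = 0.0327). The call was lost in 5 of 8 leave-one-out fits, namely without heterozygous 1 or 3 or knockout 1, 2 or 4, where adjusted p-values ran from 0.0615 to 0.0841. It was also lost when heterozygous 1 and knockout 2, or heterozygous 2 and knockout 1, were left out together (adjusted p = 0.125 and 0.115).

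Cavin2, which helps to shape caveolae and whose need differs between endothelia, was at 8.84, 13.2, 18.0 and 11.3 CPM in knockout libraries 1 to 4, against 25.6, 32.2, 43.4 and 27.4 CPM in heterozygous libraries 1 to 4. Every knockout library was below every heterozygous one. Cavin2 fell 2.51-fold (log2 fold change -1.33 ± 0.27 SE; 95% interval -1.93 to -0.73; edgeR adjusted p = 0.0146). The call held in all 8 leave-one-out fits, at log2 fold changes from -1.52 to -1.15, and was lost when heterozygous 2 and knockout 1 were left out together (-1.18, adjusted p = 0.0945). The lncRNA gene 9330175M20Rik overlaps Cavin2 on the opposite strand and had 2 counts over all 8 libraries.

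Cavin1, without which caveolae do not form, was at 150, 162, 145 and 138 CPM in knockout libraries 1 to 4 and at 150, 231, 229 and 201 CPM in heterozygous libraries 1 to 4. Heterozygous 1 lay inside the knockout range and the other 3 heterozygous libraries above it. The log2 fold change of -0.44 ± 0.16 (SE; 95% interval -0.79 to -0.10) missed the threshold (edgeR adjusted p = 0.105). Cavin1 was called lower without heterozygous 1 (-0.56, adjusted p = 0.0370), without heterozygous 1 and knockout 2 (-0.61, adjusted p = 0.0315), when scaled by library size alone (-0.56, adjusted p = 0.0375) and by DESeq2 (-0.46, adjusted p = 0.0353).

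Ratios between the cavin genes are given as values with no test. Cavin3 to Cavin1 ratios in CPM were 3.03, 3.08, 1.94 and 3.44 in knockout libraries 1 to 4, against 1.44, 1.22, 0.813 and 1.40 in heterozygous libraries. Cavin2 to Cavin1 ratios were 0.0588, 0.0818, 0.124 and 0.0816 in knockout libraries, against 0.171, 0.140, 0.190 and 0.136 in heterozygous libraries. Neither ratio overlapped between genotypes, and neither depends on how libraries were scaled. Cavin1 to Cav1 ratios overlapped, at 0.321 to 0.576 in knockout and 0.421 to 0.593 in heterozygous libraries. All ratios were chosen after the values of the genes were seen, so the separation of a ratio adds no support to the calls of its genes.

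The neck proteins did not pass the test. Ehd2, whose product is an ATPase that holds caveolae at the cell surface, was at 45.9, 58.4, 43.6 and 74.8 CPM in knockout libraries 1 to 4 and at 51.7, 84.1, 92.3 and 74.4 CPM in heterozygous libraries 1 to 4. The groups overlapped through knockout 4 and through heterozygous 1 and 4. Its log2 fold change was -0.44 ± 0.22 (SE; 95% interval -0.94 to 0.05; edgeR adjusted p = 0.247). Pacsin2, whose product bends the membrane at the neck, was at 75.8, 82.6, 83.1 and 120 CPM in knockout libraries 1 to 4 and at 67.1, 115, 106 and 93.5 CPM in heterozygous libraries 1 to 4. Its log2 fold change was -0.08 ± 0.20 (SE; 95% interval -0.53 to 0.37; edgeR adjusted p = 0.851), and its sign turned without heterozygous 2 or knockout 1.

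**Figure D2:**
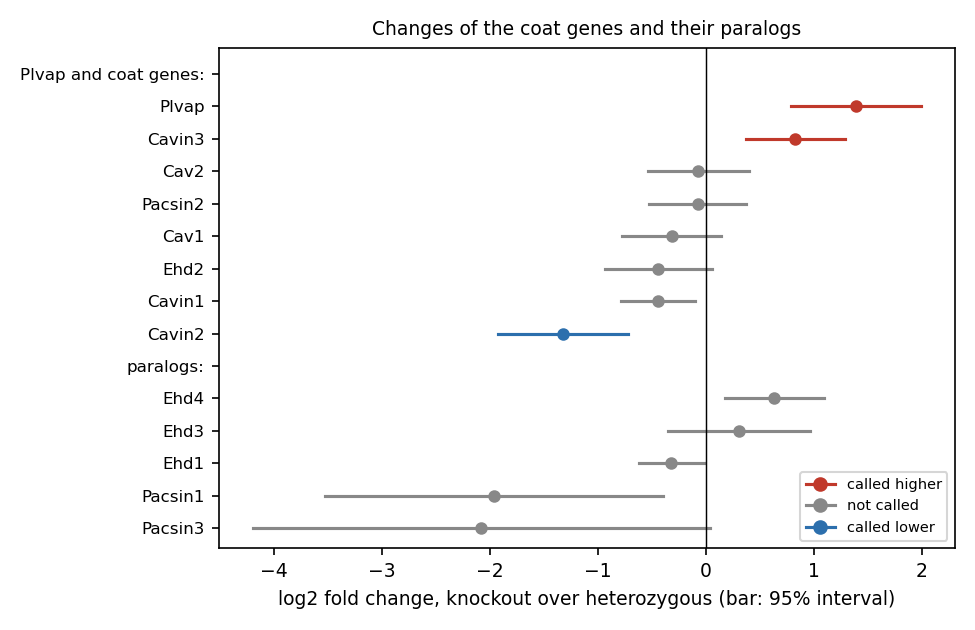
Log2 fold changes (knockout over heterozygous) of the 8 genes and of the 5 tested paralogs, each with its 95% interval; colours mark calls in edgeR's test. Plvap (1.39) and Cavin3 (0.83) were called higher and Cavin2 (-1.33) lower, and no paralog was called, beside 9.55% over all tested genes.

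The endothelial markers themselves did not sit at one level. Their mean log2 CPM was 8.80 ± 0.20 in knockout and 8.43 ± 0.32 in heterozygous libraries (SD, n = 4 each). Of the 10 markers 1 was called higher, beside 5.53% higher over all tested genes. That marker was Emcn, which encodes a surface sialomucin of endothelium (2.28-fold, edgeR adjusted p = 0.00321). Emcn was not called with a mural and fibroblast or a neural marker covariate. Each gene was therefore also expressed as its log2 CPM minus the marker mean of the same library. On this scale Plvap was at 0.68, 1.21, 1.07 and 0.45 in knockout libraries 1 to 4, against -0.07, 0.34, -0.59 and -0.73 in heterozygous libraries 1 to 4. The means differed by 1.12 and the groups did not overlap (exact two-sided permutation test over 70 arrangements, p = 0.0286, the smallest this design allows). Leaving out each library in turn gave differences from 0.961 to 1.32 for Plvap relative to endothelial markers, with p = 0.0571 in the same exact permutation test without any 1 of the knockout libraries.

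On the same scale every knockout library lay below every heterozygous library for Cav1, Cav2, Cavin1, Cavin2, Ehd2 and Pacsin2. In CPM, only Cavin2 of these 6 genes had groups that did not overlap. The share of all tested genes without overlap on this marker scale was not computed. The mean differences of these 6 genes were -0.69, -0.41, -0.79, -1.70, -0.81 and -0.44. Cavin3 overlapped between genotypes, at -0.66 to 0.44 in knockout and -1.14 to -0.23 in heterozygous libraries. These 7 differences are given as values with no test. They rest on a marker mean that was itself 0.37 higher in knockout libraries, which lowers the difference of every gene by that amount.

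**Figure D3:**
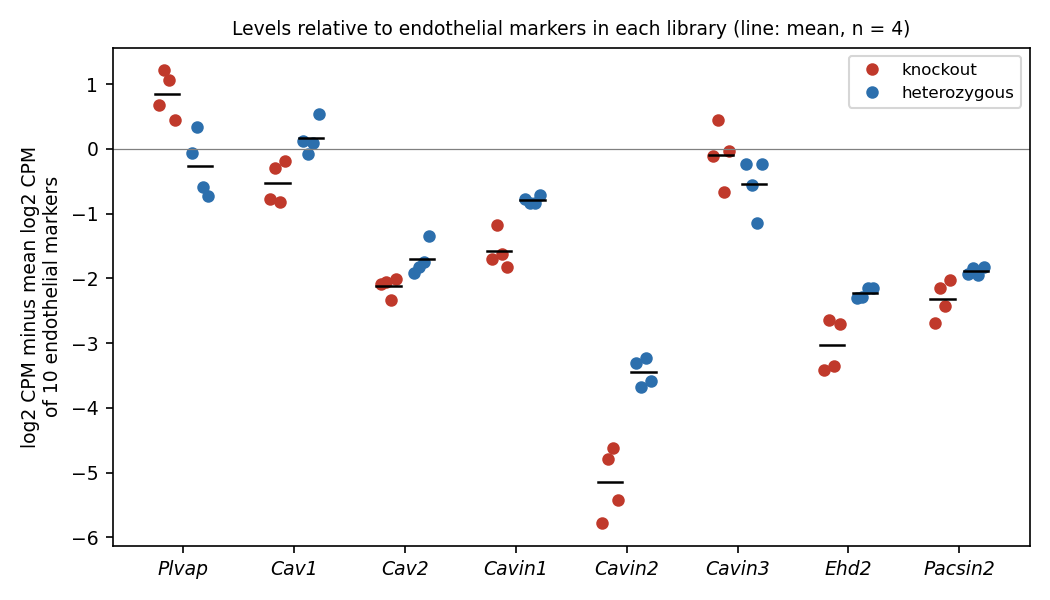
Log2 CPM of each gene minus the mean log2 CPM of 10 endothelial markers, by library, with knockout in red to the left of heterozygous in blue; lines are means (n = 4 each). Knockout points lie above all heterozygous points for Plvap, below them for 6 coat genes, and among them for Cavin3. The marker mean was itself 0.37 higher in knockout libraries, and the share of all tested genes without overlap on this scale was not computed.

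Caveolae are also abundant in pericytes, smooth muscle cells and fibroblasts, so markers of those cells bear on the coat genes. The mean log2 CPM of the 11 tested mural markers was 1.11, 1.99, 3.54 and 0.92 in knockout libraries 1 to 4, against 3.90, 3.95, 3.69 and 4.03 in heterozygous libraries 1 to 4. Of the 13 markers listed, 3 were at 0 in at least 1 library, and the summed mural level was 40.8 to 592 CPM in knockout and 374 to 519 CPM in heterozygous libraries. Of the tested mural markers 2 were called lower, namely Cspg4 and Des, beside 4.02% lower over all tested genes. The 10 fibroblast and meningeal markers summed to 110 to 626 CPM in knockout and 235 to 432 CPM in heterozygous libraries, with Twist1 called lower and 2 markers at 0 in knockout 2.

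Markers of other cell types were counted in the same way, beside the same 4.02% called lower over all tested genes. The 16 neuron and radial glia markers summed to 127 to 496 CPM in knockout and 421 to 2156 CPM in heterozygous libraries, and 10 were called lower, the smallest p-values being those of Pax6, Dcx, Slc1a3 and Neurod2. The 10 microglial markers summed to 243 to 1019 CPM in knockout and 629 to 1631 CPM in heterozygous libraries, with Ctss called lower. The 4 tested erythroid markers summed to 17.6 to 51.8 CPM in knockout and 227 to 611 CPM in heterozygous libraries, and Hbb-y and Hba-x, which encode embryonic globins, were called lower. None of the choroid plexus markers, such as Ttr and Folr1, and none of the lymphatic markers, such as Lyve1 and Pdpn, was called. At a share of 4.02% a list of 10 markers can hold 1 call, as the fibroblast and microglial lists did. Positive log2 fold changes were held by 0 of 11 tested mural, 16 neural, 10 microglial, 4 erythroid, 5 choroid plexus and 2 lymphatic markers. They were held by 1 of 10 fibroblast markers and by 6487 of all 13540 tested genes. The medians were -1.65 (mural), -0.57 (fibroblast), -2.305 (neural), -1.34 (microglial), -3.31 (erythroid), -2.13 (choroid plexus) and -1.18 (lymphatic), beside -0.03 over all tested genes.

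Knockout 3 had the mural, fibroblast and neural markers of a heterozygous library or close to it, at 3.54, 4.12 and 3.86 mean log2 CPM, against 3.69 to 4.03, 3.29 to 4.46 and 3.99 to 6.12 in heterozygous libraries. In this library Plvap was the highest of all 8 (935 CPM). Its Cavin2 was the highest of the knockout libraries (18.0 CPM, below the heterozygous minimum of 25.6 CPM). Its Cavin3 was the lowest of the knockout libraries (282 CPM). With the mean of the mural and fibroblast markers as a covariate, the log2 fold change was 1.49 for Plvap (edgeR adjusted p = 0.131), -0.84 for Cavin2 (adjusted p = 0.372) and 0.23 for Cavin3 (adjusted p = 0.751). With the neural markers as a covariate it was 1.14 for Plvap (adjusted p = 0.310), -1.20 for Cavin2 (adjusted p = 0.336) and 0.25 for Cavin3 (adjusted p = 0.797). These covariates left 74 and 39 called genes of all tested, against 1293 without a covariate (1982 and 1552 genes had an unadjusted p under 0.05). The mural and the neural marker means did not overlap between genotypes, so the covariates share much of their variation with genotype. In these fits the effect of genotype cannot be told apart well from that of the markers, and a lost call decides nothing about a gene.

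**Figure D4:**
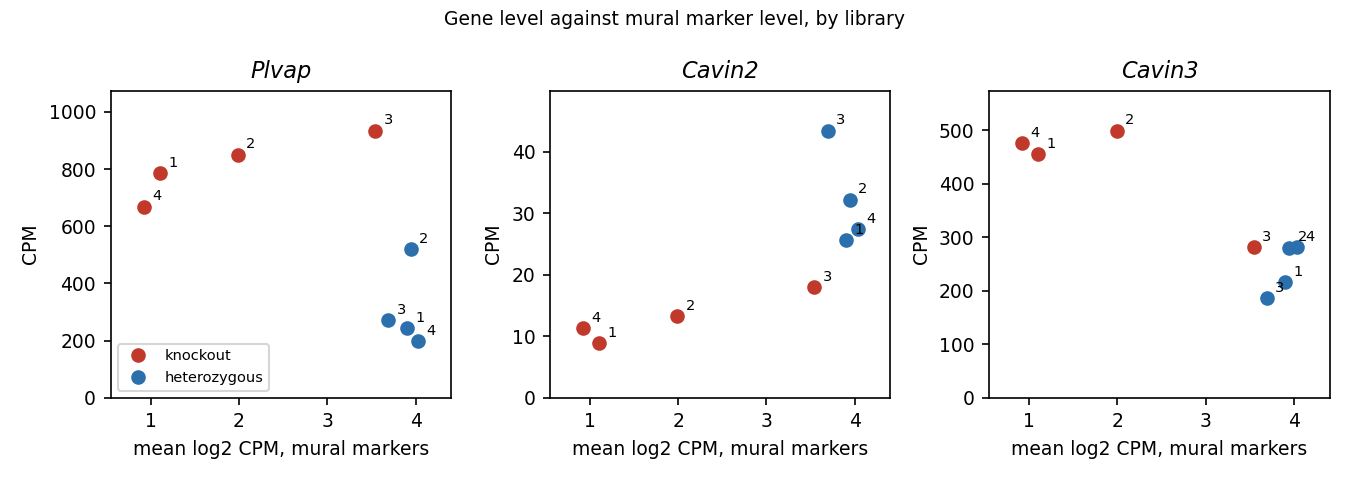
CPM of Plvap, Cavin2 and Cavin3 against the mean log2 CPM of 11 mural markers, by library, with knockout in red and heterozygous in blue; digits are library numbers. Knockout 3 (3.54) lies beside the heterozygous libraries (3.69 to 4.03) on the marker axis, with Plvap at 935, Cavin2 at 18.0 and Cavin3 at 282 CPM.

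Promoter sequence was at hand from RefSeq (GRCm38.p6) for 6 of the 8 genes, and 4 windows are shown because they belong to both caveolins and to the cavins that lay lower relative to the endothelial markers. Cav1 and Cavin1 each had another annotated start, whose window is not shown. Each is the 250 bases before a transcription start, 5′ to 3′ on the strand of the gene, with capitals marking matches to a motif searched.
Cavin2, chr1:51288876-51289125, plus strand: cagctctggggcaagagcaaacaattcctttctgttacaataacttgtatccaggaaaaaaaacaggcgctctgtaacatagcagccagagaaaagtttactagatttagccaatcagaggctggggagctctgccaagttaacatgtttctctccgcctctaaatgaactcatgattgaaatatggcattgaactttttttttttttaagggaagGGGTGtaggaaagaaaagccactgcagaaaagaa
Cavin1, chr11:100970618-100970867, minus strand: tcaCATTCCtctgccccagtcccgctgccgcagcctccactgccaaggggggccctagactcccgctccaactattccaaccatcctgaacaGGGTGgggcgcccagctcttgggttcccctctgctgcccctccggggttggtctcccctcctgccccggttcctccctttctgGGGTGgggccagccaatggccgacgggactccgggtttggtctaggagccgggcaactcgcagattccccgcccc
Cav2, chr6:17280935-17281184, plus strand: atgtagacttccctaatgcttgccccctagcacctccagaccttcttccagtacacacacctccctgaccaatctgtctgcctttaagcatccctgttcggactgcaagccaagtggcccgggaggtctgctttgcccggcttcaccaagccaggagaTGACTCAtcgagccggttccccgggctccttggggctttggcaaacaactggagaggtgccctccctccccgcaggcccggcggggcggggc
Cav1, chr6:17306085-17306334, plus strand: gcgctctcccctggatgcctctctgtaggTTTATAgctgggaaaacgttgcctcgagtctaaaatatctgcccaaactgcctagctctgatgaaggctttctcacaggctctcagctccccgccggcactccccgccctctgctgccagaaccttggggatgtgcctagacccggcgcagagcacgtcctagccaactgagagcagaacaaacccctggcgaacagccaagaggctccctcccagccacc

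The Cavin2 window had the lowest share of G or C of these 4, with 40.4% and 2 CpG dinucleotides, against 67.6% and 12 for Cavin1, 62.0% and 10 for Cav2, 59.6% and 10 for Cav1, and a median of 52.4% and 6 over 32851 promoter windows of the same length. Both strands were searched for 8 motifs, and a palindromic match was counted once. The KLF letters CACCC matched at 34 bases before the Cavin2 start and at 158 and 75 bases before the Cavin1 start. Each of these matches was on the strand opposite the gene, printed as GGGTG, and 52.0% of all windows held the letters. The TEAD letters GGAATG matched once, at 247 bases before the Cavin1 start on the strand opposite the gene, printed as CATTCC (12.6% of all windows). The AP-1 letters TGANTCA matched at 92 bases before the Cav2 start (6.75%). The TATA letters TATAAA matched at 221 bases before the Cav1 start that is shown, on the strand opposite the gene, printed as TTTATA (12.4%). The window of the other Cav1 start had 60.8% G or C, 12 CpG dinucleotides and no match to any of the 8 motifs. None of these 4 windows matched the TCF/LEF motif, searched as CTTTGA and held by 13.8% of all windows. None matched the SOX motif either, searched as ACAAAG and held by 16.5% of all windows. The same was so for the GATA motif, searched as AGATAA and held by 9.99% of all windows, and for the ETS motif, searched as CGGAAG and held by 13.6% of all windows. Some of these motifs can overlap in sequence, and a match describes letters and not a bound site.

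Of the 7 paralogs of the coat genes 5 were tested and 0 were called in edgeR (3 had an unadjusted p under 0.05, and DESeq2 called 1 higher and 1 lower). Over all tested genes 9.55% were called, a share at which 5 genes can hold 0. The muscle genes Cav3 and Cavin4 had at most 8 and 10 counts in any library. Ehd4, a paralog of Ehd2 that is abundant in endothelium, was at 194, 138, 164 and 170 CPM in knockout libraries 1 to 4, against 81.0, 154, 89.3 and 105 CPM in heterozygous libraries 1 to 4. Heterozygous 2, which also had the highest Plvap of its group, overlapped the knockout libraries, and Ehd4 was not called (log2 fold change 0.63 ± 0.21 SE, edgeR adjusted p = 0.0845). It was called without heterozygous 2 (0.86, adjusted p = 0.0242) and by DESeq2 and limma voom (adjusted p = 0.0319 and 0.0444). Ehd1, a paralog of recycling endosomes, was at 113 ± 14.99 CPM in knockout and 141 ± 6.21 CPM in heterozygous libraries, and its groups did not overlap, but it was not called (edgeR adjusted p = 0.171). The ratio of Ehd4 to Ehd2 in CPM was 2.28 to 4.22 in knockout and 0.968 to 1.83 in heterozygous libraries.

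Of 9 genes whose products act at or sit in caveolae, 1 fell and 0 rose, while over all tested genes 9.55% were called and 4.02% were lower. Their median log2 fold change was -0.23, beside -0.03 over all tested genes. Src, the kinase that phosphorylates caveolin-1, was at 29.1, 23.3, 27.5 and 22.3 CPM in knockout libraries 1 to 4, against 39.6, 40.4, 55.1 and 50.2 CPM in heterozygous libraries 1 to 4. It fell 1.81-fold without overlap of the groups (log2 fold change -0.86 ± 0.18 SE, edgeR adjusted p = 0.0170). The call was lost without heterozygous 3 (adjusted p = 0.0526), without knockout 4 (0.0575) and without heterozygous 2 and knockout 1 (0.0645). It was also lost with the mural and fibroblast covariate (log2 fold change -0.78, adjusted p = 0.276) and the neural covariate (-0.70, adjusted p = 0.420). Nos3, the endothelial nitric oxide synthase that caveolin-1 binds, was at 438 ± 53.9 CPM in knockout and 540 ± 126 CPM in heterozygous libraries. Acvrl1, a receptor of the BMP family, was at 492 ± 144 CPM in knockout and 323 ± 75.6 CPM in heterozygous libraries. Neither passed the test, nor did Dnm2, Flna, Fyn, Abl1, Cd36 or Scarb1.

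Genes of other uptake routes were set beside the caveola genes. Of 15 clathrin coat and adaptor genes 0 were called in edgeR (3 had an unadjusted p under 0.05, and DESeq2 called 1 lower). Over all tested genes 9.55% were called, a share at which lists this small can hold 0. The log2 fold changes of the clathrin genes lay between -0.51 and 0.46. The adaptor subunit gene Ap2m1 was at 980 ± 71.8 CPM in knockout and 972 ± 35.0 CPM in heterozygous libraries, a log2 fold change of 0.01 that turned negative under every other scaling tried. Ap2s1 was at 270.0 ± 36.4 CPM in knockout and 232 ± 23.6 CPM in heterozygous libraries. Of 4 flotillin and related genes 0 were called in edgeR (1 had an unadjusted p under 0.05, and DESeq2 called 0), beside the same 9.55%. Sh3gl1, the endophilin gene, was at 308 ± 32.9 CPM in knockout and 254 ± 22.3 CPM in heterozygous libraries, and Flot1 at 43.2 ± 4.02 CPM in knockout and 51.6 ± 11.2 CPM in heterozygous libraries.

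Of 7 genes for receptors of transcellular carriage and for Mfsd2a, 3 fell and 0 rose, beside 4.02% lower and 5.53% higher over all tested genes. The median over the 7 was -0.11 on the log2 scale. The transferrin receptor gene Tfrc fell 2.55-fold, the endocytic receptor gene Lrp1 3.04-fold and the neonatal Fc receptor gene Fcgrt 2.85-fold, all without overlap of the groups (edgeR adjusted p = 0.0432, 0.0325 and 0.0321). Their calls held in 1, 2 and 2 of 8 leave-one-out fits. All 3 were called when knockout 3 was left out, 1 when heterozygous 2 or knockout 4 was, and 0 when any other library was. With either covariate from the mural and fibroblast or the neural markers 0 were called in edgeR (the same covariates left 74 and 39 called genes of all tested). With the mural and fibroblast covariate the log2 fold change was -0.40 for Tfrc, -1.01 for Lrp1 and -0.52 for Fcgrt, and with the neural covariate it was -0.88 for Tfrc, -0.50 for Lrp1 and -1.08 for Fcgrt. Without heterozygous 2 and knockout 1, or without heterozygous 1 and knockout 2, none of the 3 was called. Fcgrt was at 125 CPM in knockout 3, the knockout library richest in markers of microglia, and at 27.5 to 81.4 CPM in the other 3. The part of other cell types in these changes was not tested. Mfsd2a, the lipid transporter whose loss raises caveolar transport across brain endothelium, was at 1663, 847, 1343 and 1072 CPM in knockout libraries 1 to 4, against 665, 1035, 1662 and 1320 CPM in heterozygous libraries 1 to 4. These ranges overlapped almost completely, and its log2 fold change of 0.07 ± 0.28 (SE) had a 95% interval of -0.54 to 0.69 (edgeR adjusted p = 0.901).

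Genes abundant in peripheral or fenestrated capillaries, where Plvap is normally found, did not move as a block. Of 7 tested, 2 rose and 1 fell, beside 5.53% higher and 4.02% lower over all tested genes, and the median log2 fold change was -0.94. Esm1, an endothelial proteoglycan gene, was at 224, 73.0, 165 and 158 CPM in knockout libraries 1 to 4, against 4.08, 16.4, 12.6 and 10.9 CPM in heterozygous libraries 1 to 4. Gpihbp1, whose product carries lipoprotein lipase across capillary endothelium, was at 36.5, 31.4, 22.9 and 64.3 CPM in knockout libraries 1 to 4, against 8.07, 9.24, 9.39 and 10.6 CPM in heterozygous libraries 1 to 4. These rises were 14.1-fold and 4.16-fold (edgeR adjusted p = 0.00107 and 0.00393), and both were called in all 8 leave-one-out fits. Gpihbp1 lost its call with the mural and fibroblast covariate (log2 fold change 1.19, edgeR adjusted p = 0.159) and the neural covariate (1.41, adjusted p = 0.286), while Esm1 kept it (adjusted p = 0.0245 and 0.0482). The fatty acid binding protein gene Fabp5 fell 3.87-fold to 56.4 ± 38.3 CPM in knockout libraries, against 218 ± 97.9 CPM in heterozygous libraries, and its call held in 4 of those 8 fits (lost without heterozygous 1 or knockout 1, 2 or 4) and in neither covariate fit (log2 fold change -0.79 and -0.64). Aqp1, Cd36, Igfbp3 and Igfbp5 were not called. The part of other cell types in the changes of these 7 genes, and in their median, was not tested.

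**Figure D5:**
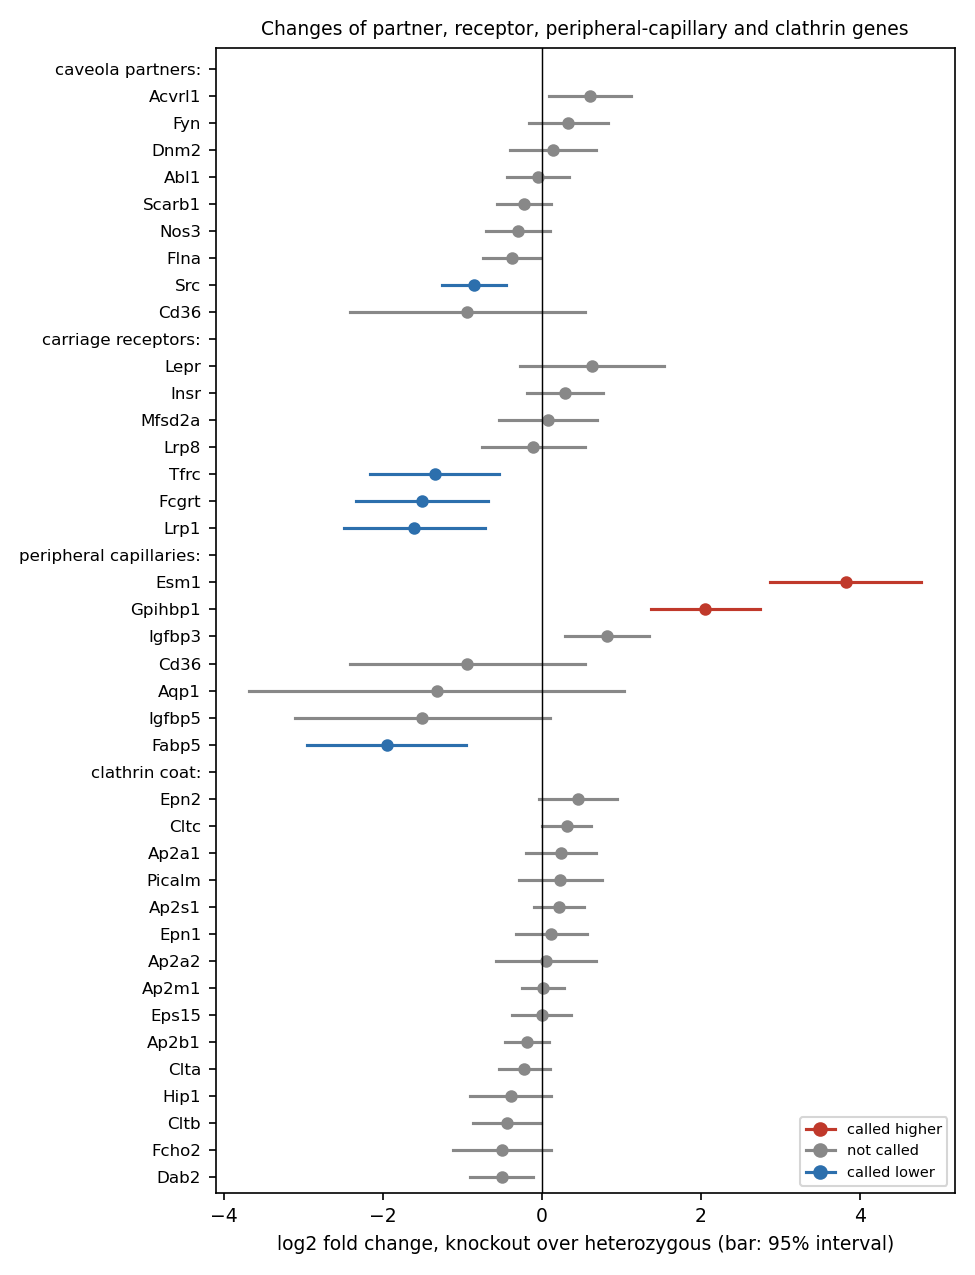
Log2 fold changes (knockout over heterozygous) with 95% intervals for genes of caveola partners, receptors of transcellular carriage, peripheral capillaries and the clathrin coat; colours mark calls in edgeR's test. The carriage receptors hold 3 genes called lower, Esm1 (3.82) and Gpihbp1 (2.06) were called higher, and no clathrin gene was called. Over all tested genes 9.55% were called.

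Of 14 genes of blood-brain barrier endothelium 3 fell and 0 rose, beside 4.02% lower over all tested genes. Those that fell were the junction genes Ocln (3.15-fold) and Lsr (1.77-fold) and the thyroid hormone transporter gene Slco1c1 (2.39-fold). Ocln was called in all 8 leave-one-out fits, Lsr in 6 and Slco1c1 in 4, and the groups of Slco1c1 overlapped. With either covariate only Ocln of these 3 kept its call, and without heterozygous 2 and knockout 1 none did (adjusted p = 0.0685 for Ocln, 0.119 for Lsr and 0.0565 for Slco1c1). The median log2 fold change over the 14 genes was -0.21.

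The genes whose pattern over the 8 libraries was most like that of Plvap were Prss23, Tgfbi, Urb2, Tmem39a and Emid1. Likeness was the mean absolute difference in log2 CPM after each gene's own mean was subtracted, over 8882 genes with a mean log2 CPM of at least 3. It was 0.21 for Prss23 and Tgfbi and 0.24 for the other 3. Prss23, a protease gene, averaged 51.2 CPM in knockout and 24.8 CPM in heterozygous libraries, and Tgfbi, a matrix protein gene, 139 CPM in knockout and 53.7 CPM in heterozygous libraries. The genes most like Cav1 were Slc35f2, Ttpal, Ranbp10, Bora and Morc3, with differences of 0.11 to 0.12, and none of these 5 was called (edgeR adjusted p = 0.380 to 0.815). Genes near each other by this measure were read from the same 8 libraries and share their depth.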

How the data were processed

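The authors deposited 1 table of raw counts, with a row for each gene symbol, per the labels. TopHat2 version 0.7, Cufflinks version 2.2.1 and build mm10 are named in the submitters' processing notes; the sources used here name no counting program or strand setting, so reads of overlapping genes cannot be told apart by strand. SMART-Seq v4 cDNA and Nextera XT libraries were made, per the labels' protocols. Counting error alone is small at these depths, and intervals cover the spread between libraries.

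In R 4.3.3, edgeR 4.0.16 kept 13540 genes (filterByExpr, minimum count 10, minimum total 15; 99.9% of counts), scaled libraries with TMM, and tested knockout against heterozygous with a robust quasi-likelihood F-test and no covariate, adjusted by Benjamini-Hochberg over all tested genes. The SE is the absolute log2 fold change divided by the square root of F; intervals are 95%. Log2 CPM used a prior count of 2. Coordinates and promoters are RefSeq's (GRCm38.p6, the build of mm10), exon lengths GENCODE's. The test was checked on simulated data in which 100 genes changed 2-fold and 100 changed 4-fold. It recovered 40% of the 2-fold and 84% of the 4-fold changes, and 5 of its 129 calls were false. A gene that was not called can thus still differ by 2-fold. Fewer genes changed there than were called in the data, so the shares may differ here. DESeq2 1.42.0 and limma 3.58.1 were alternatives.

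The members and gene lists were chosen with earlier results of these data known. The rule for named genes takes all 8 members, up to 4 called genes of each list by smallest p or else its 2 most abundant, and the 5 genes most like Plvap and the 5 most like Cav1, without Gm and Rik names; further genes were named after their values were seen. For 1 listed gene the result is not reported here, and list counts and medians leave it out. No 2 libraries of a genotype agreed within sampling noise (smallest chi-square divided by its degrees of freedom, 28.9).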

Additional observations from a re-analysis of the deposited data

Results flagged for a closer look

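Pacsin2 in knockout 4 stood apart from its group, at 120 CPM against 75.8 to 83.1 CPM in the other 3 knockout libraries, a gap of 0.835 of the group's range, which is above Dixon's 95% critical value for 4 samples. It was the only one of 16 groups (8 genes in 2 genotypes) to do so, and chance gives about 1 in 20. Knockout 4 was also the deepest library, with 35861108 counts, and had the highest Cav1, Cav2 and Ehd2 of the knockout libraries (430, 122 and 74.8 CPM).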

How the results depend on the processing

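Plvap was higher in knockout under all 22 alternatives, with log2 fold changes from 1.14 to 1.79, and was called in 18. Its call was lost with the mural and fibroblast covariate (1.49), with the neural covariate (1.14), without heterozygous 1 and knockout 2 (1.27) and, chosen after seeing the data, without heterozygous 1 and knockout 3 (1.24). Cavin2 was lower in all 22 and called in 19, and Cavin3 higher in all 22 and called in 13. The number of the 8 genes called higher was 0 with either covariate and without heterozygous 1 and knockout 2, 1 without heterozygous 2 and knockout 1 or without heterozygous 1 and knockout 3, and 1 to 2 when 1 library was left out. The number called lower was 2 with library size alone, with DESeq2 and without heterozygous 1 and knockout 2, 0 with either covariate and without heterozygous 2 and knockout 1, and 1 to 2 when 1 library was left out. Over all tested genes 2229 were called by DESeq2, 74 with the mural and fibroblast covariate, 39 with the neural covariate, 842 without heterozygous 1 and knockout 2, 300 without heterozygous 2 and knockout 1, and 579 to 1347 when 1 library was left out, being under 1293 by more than 1.5 times without heterozygous 1 (787), heterozygous 3 (790), knockout 1 (579) or knockout 4 (625). Among the lists, DESeq2 called 5 endothelial markers higher (1 in edgeR) and 5 barrier genes lower (3 in edgeR), and with either covariate 0 endothelial markers, 1 peripheral gene and 0 partners or receptors were called in the direction given above for each. Without heterozygous 1 there were 5 barrier genes called lower, and without knockout 2 there were 3 endothelial markers called higher. Fits on fewer libraries or with a covariate have fewer residual degrees of freedom, and both covariates vary with genotype.

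Plvap relative to endothelial markers was 0.961 to 1.32 higher when 1 library was left out, with exact permutation p of 0.0571 without any 1 of the knockout libraries (values 1.17, 0.997, 1.05 and 1.25 without knockout 1 to 4). Same-numbered libraries deviated together weakly or not at all (correlations 0.06, 0.21, -0.05 and 0.02). Only knockout 2 was most like the heterozygous library of its own number. With so few libraries this cannot exclude a pairing by number. With the replicate number as a block Plvap had a log2 fold change of 1.49 (edgeR adjusted p = 0.0106), all 3 calls among the 8 genes held, those of Src, Lsr and Slco1c1 were lost (adjusted p = 0.0514, 0.0561 and 0.0554), and 868 genes were called in all; relative to the markers the block gave 1.12 (exact sign-flip test, p = 0.125, the smallest 4 pairs allow).

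Signs turned only for genes that were not called. When 1 library was left out, Cav2 ran from -0.2419 to 0.0263, positive without heterozygous 4, knockout 2 or knockout 3, and Pacsin2 from -0.2445 to 0.0253, positive without heterozygous 2 or knockout 1 (0.11 without both). Ap2m1 was at -0.11, -0.0056 and -0.0631 with library size alone, RLE and upper-quartile factors, at -0.0056 by DESeq2, at -0.0802 and -0.0505 with the mural and neural covariates, at -0.0116 without heterozygous 1 and knockout 2, and at -0.0302 to 0.0656 when 1 library was left out. Ttr ran from -2.7842 to 1.7928 and Folr1 from -2.8692 to 1.2495 when 1 library was left out, both positive without heterozygous 4. Library size alone shifted the median over all genes by -0.12 on the log2 scale and lowered the share of called genes that were higher to 42.6%, against 57.9% with TMM; the direction of all 8 genes was the same under the 3 other scalings. The cause of these shifts was not tested.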
